A study of Mus musculus with 46 samples.

Results

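Rpb2 is the protein of Polr2b, the second-largest subunit of RNA polymerase II, and its chromatin immunoprecipitation (ChIP-seq) maps where the polymerase sits on DNA. The data described here are the 3 Rpb2 peak lists of the series, chosen by their labels alone: 2 of adult Ki67-negative microglia and 1 of Ki67-positive microglia at postnatal day 8 (PND8). They are 3 of the 46 samples of the series and 3 of its 20 samples with a peak list. Their merged peaks gave 37666 regions. Microglia are the resident macrophages of the brain, and Ki67 is a nuclear protein of cycling cells. All 3 libraries came from male wild-type C57BL/6 mice. The adult mice were 60 and 65 days old and the PND8 mice 8 days old, with no treatment given in the labels. For adult replicate 2 the sample title gives 60 days and the age label 65, and the age label was used. Cells were fixed with paraformaldehyde, permeabilised, stained with an antibody to Ki67 and sorted. All were kept in sodium butyrate, a histone deacetylase inhibitor, and flavopiridol, an inhibitor of the elongation kinase CDK9. Age and Ki67 status change together between these groups and cannot be told apart. The labels do not say how many animals were pooled for a library. With 1 PND8 library, no Rpb2 difference was tested: values of both adult libraries stand beside the PND8 value, and a difference in Rpb2 here is one between these libraries.

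RNA polymerase II gathers at promoters, where it often pauses shortly after initiation before it is released into the gene body, so a peak near a start site is the commonest form of its ChIP-seq signal. In resting cells the DREAM complex binds many cell cycle promoters and holds them silent. It reaches them through the cell cycle genes homology region (CHR), often with CCAAT boxes bound by NF-Y, at genes of G2 and mitosis, and through E2F sites at genes of the G1 to S transition. In cycling cells B-MYB and FOXM1 act at the CHR genes, and activator E2Fs at the S phase genes. Microglia divide in the first postnatal weeks and are mostly out of cycle in the adult brain.

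The promoters of 6 cell cycle genes are printed first, because they show these elements at start sites where the PND8 list held an Rpb2 peak. Each is RefSeq sequence of GRCm38.p6 (the mm10 build), on the strand of the gene, 5′ to 3′, from 250 bases before to 50 bases after the start site. Capitals mark every match to TTTGAA (the CHR), CCAAT, an E2F word (TTTCCCGC, TTTGGCGC, TTTCGCGC or TTTGCCGC) or TATAAA, on either strand. A match is a run of letters and not a measured site.
Mki67: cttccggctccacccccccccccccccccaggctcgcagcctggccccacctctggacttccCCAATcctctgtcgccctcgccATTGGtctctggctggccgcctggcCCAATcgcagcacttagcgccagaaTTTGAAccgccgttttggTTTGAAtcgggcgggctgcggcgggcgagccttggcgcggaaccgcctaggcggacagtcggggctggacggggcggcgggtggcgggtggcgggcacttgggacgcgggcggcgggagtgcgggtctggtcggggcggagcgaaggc
Cdk1: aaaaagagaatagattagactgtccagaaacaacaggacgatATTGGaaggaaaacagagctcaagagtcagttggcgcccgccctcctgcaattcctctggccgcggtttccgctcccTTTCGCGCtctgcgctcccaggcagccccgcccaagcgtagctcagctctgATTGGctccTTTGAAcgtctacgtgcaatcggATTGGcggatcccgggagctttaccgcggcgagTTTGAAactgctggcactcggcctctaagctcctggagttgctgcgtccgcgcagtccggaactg
Ccnb2: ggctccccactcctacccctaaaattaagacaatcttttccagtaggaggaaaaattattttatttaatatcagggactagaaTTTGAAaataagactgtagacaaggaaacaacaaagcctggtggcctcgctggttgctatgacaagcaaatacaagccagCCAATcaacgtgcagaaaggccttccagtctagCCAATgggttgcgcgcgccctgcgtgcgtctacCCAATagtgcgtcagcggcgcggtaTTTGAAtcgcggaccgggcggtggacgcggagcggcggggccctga
Top2a: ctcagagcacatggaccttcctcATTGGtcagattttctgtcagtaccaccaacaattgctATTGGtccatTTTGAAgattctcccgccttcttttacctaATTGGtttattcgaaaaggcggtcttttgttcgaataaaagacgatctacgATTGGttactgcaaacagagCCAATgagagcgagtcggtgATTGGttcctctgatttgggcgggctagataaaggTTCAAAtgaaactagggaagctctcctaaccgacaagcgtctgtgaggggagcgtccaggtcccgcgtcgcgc
Kif11: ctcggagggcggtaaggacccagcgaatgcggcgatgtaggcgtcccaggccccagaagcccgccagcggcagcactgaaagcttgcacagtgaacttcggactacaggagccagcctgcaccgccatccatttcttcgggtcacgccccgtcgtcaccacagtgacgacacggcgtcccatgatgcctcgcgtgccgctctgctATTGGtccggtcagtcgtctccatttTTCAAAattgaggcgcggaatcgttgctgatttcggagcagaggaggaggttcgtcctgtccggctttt
Mcm6: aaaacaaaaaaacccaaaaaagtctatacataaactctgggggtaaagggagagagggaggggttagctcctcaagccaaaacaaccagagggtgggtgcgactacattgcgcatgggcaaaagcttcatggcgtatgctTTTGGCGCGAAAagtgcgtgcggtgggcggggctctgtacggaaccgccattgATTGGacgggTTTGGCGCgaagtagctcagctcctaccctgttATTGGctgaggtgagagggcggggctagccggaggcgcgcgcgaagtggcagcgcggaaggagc
The Mki67 window, which gives Ki67 itself, lies at chr7:135716330-135716629 on the minus strand and holds CHR and CCAAT matches. Cdk1, the mitotic kinase, lies at chr10:69352863-69353162 on the minus strand, with CHR, CCAAT and E2F matches. Ccnb2, a B-type cyclin that binds Cdk1, lies at chr9:70421505-70421804, and Top2a, the topoisomerase that untangles replicated chromosomes, at chr11:99024140-99024439, both on the minus strand and both with CHR and CCAAT matches. Kif11, the kinesin that separates spindle poles, lies at chr19:37376132-37376431 on the plus strand with 1 match to each of these. Mcm6, a subunit of the replicative helicase, lies at chr1:128359656-128359955 on the minus strand with E2F and CCAAT matches and no CHR match. Of these 6 promoters, Kif11 alone had a peak in the adult lists.

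The deposited lists differed in length before any biology was read from them. Adult replicate 1 held 14550 peaks from 18535188 tags, adult replicate 2 held 10544 from 26312426 tags, and PND8 held 31602 from 26823101 tags. Tags in peaks were 6.78%, 3.19% and 8.57% of these totals, so the enrichment of the libraries differed as well as their depth. A peak's signal is its Normalized Tag Count, the tags in the peak per 10000000 tags of the library. Its median was 25.9 in adult replicate 1, 17.1 in adult replicate 2 and 16 in PND8. Each peak had to reach 4 times the input and 4 times the surrounding 10000 bp. The local filter removed 43.72%, 51.77% and 56.52% of the putative peaks, so a start site inside a broad field of polymerase can be without a peak, and absence of a peak is not absence of polymerase. For that reason presence is given both for all peaks and for the 10544 top-scoring peaks of each list, called equal numbers below. The PND8 list was called against an input made for an H3K27ac library of PND8 Ki67-positive cells, and adult replicate 2 against its own Rpb2 input, per the file headers. Adult replicate 2 and PND8 carry the same header code and adult replicate 1 another, so the comparison without adult replicate 1 is the one within a code.

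Regions found at PND8 and in neither adult list lay mostly outside promoters with all peaks. With equal numbers 1265 lay at promoters, 669 in gene bodies and 635 elsewhere. Promoters then held more than either other place, but not more than the other places together. Of the 37666 merged regions, 6609 (17.55%) were in all 3 lists, 5313 in PND8 and 1 adult list, 19674 (52.23%) in PND8 only, 493 (1.309%) in both adult lists and not PND8, and 5577 in 1 adult list only. Without adult replicate 1, regions in the remaining adult list and not PND8 numbered 2761, and without adult replicate 2, 4054, since a single list then has to hold the region. The PND8-only share was 29.19% at promoters (within 1 kb of a start site of the count table), 60.79% in gene bodies and 66.53% elsewhere. With equal numbers it fell to 15.22% of 16874 regions, against 7.135% in both adult lists and not PND8. The PND8 regions were then also in adult replicate 1 for 66.35% and in adult replicate 2 for 62.2%. Adult replicate 1 shared 64.33% of its regions with adult replicate 2, so the PND8 list differed from an adult list about as much as the adult lists differed from each other. The order of these shares turned with the number of peaks: with 5000 they were 63.38% and 67.98% for PND8 and 70.46% between adults. At promoters alone and with equal numbers, adult replicates shared 74.28% and 77.28% of their regions with each other. PND8 shared 71.68% and 71.14% of its 7086 promoter regions with them. In the other direction, 77.33% of the promoter regions of adult replicate 1 and 79.85% of those of adult replicate 2 were also in PND8. The order thus depended on which list was the base.

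**Figure D1:**
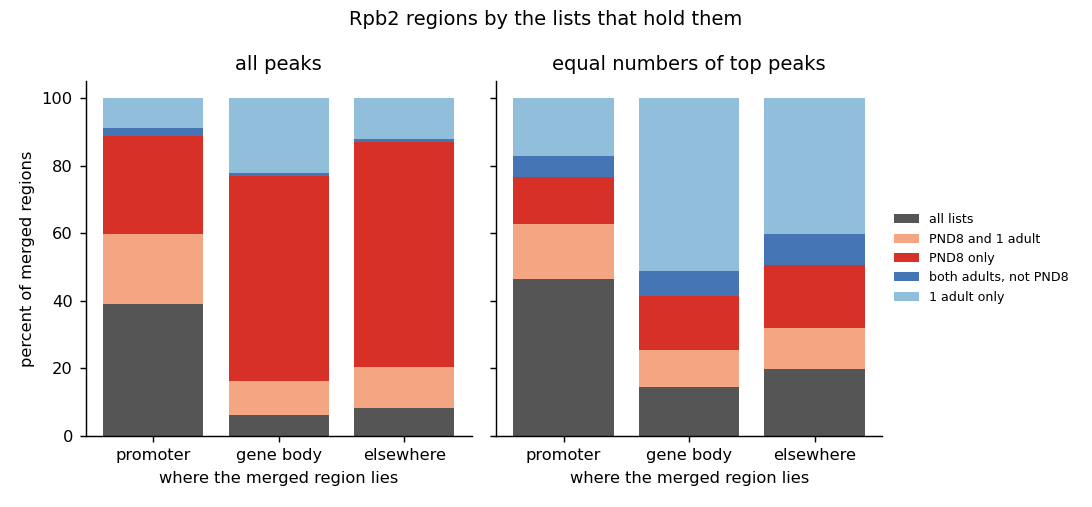
Percent of merged Rpb2 regions (stacked bars) by the lists that hold them, at promoters, in gene bodies and elsewhere, for all peaks and for equal numbers of top-scoring peaks. The PND8-only part is 29.19% at promoters and 66.53% elsewhere with all peaks, and 13.65% and 18.44% with equal numbers.

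Peaks of the strongest signal clustered at start sites in every library. With equal numbers, promoters held 66.98% of the PND8 peaks, 62.18% of those of adult replicate 1 and 59.8% of those of adult replicate 2. The strongest promoter peak of a gene was centred a median 41 bp downstream of the start site at PND8, 45 bp in adult replicate 1 and 67 bp in adult replicate 2. The peak width was fixed within a library, at 190, 256 and 226 bp in that order. Of the 20999 genes of the count table, 10171 (48.4%) had a promoter peak at PND8, 7568 (36.0%) in adult replicate 1 and 6436 (30.6%) in adult replicate 2. With equal numbers these became 33.4%, 31.7% and 30.6%. By class, 5858 genes had a promoter peak in all lists, 2264 (10.8%) in PND8 only and 50 (0.238%) in both adult lists and not PND8. Equal numbers gave 715 genes for PND8 only and 447 for both adult lists and not PND8. Without adult replicate 1, PND8-only genes numbered 3819 and adult-only genes 84, and without adult replicate 2 adult-only genes numbered 155.

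Genes of G2 and mitosis had the largest change in promoter occupancy among the programme lists examined. All 55 of them had an Rpb2 promoter peak at PND8, against 25 in adult replicate 1 and 15 in adult replicate 2, where 48.4%, 36.0% and 30.6% of all genes had one. With equal numbers the counts were 47, 22 and 15. Of the 55 genes, 30 had the peak in PND8 only, and 22 of the 30 did so with equal numbers as well. Without adult replicate 1, 40 of the 55 had a peak at PND8 and none in the remaining adult list. In 11 of the 55 the promoter peak also lies in the window of another gene, such as Kctd9 for Cdca2, and the signal cannot be split between them.

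Ki67's own gene was among the PND8-only promoters. Mki67 had a promoter signal of 0 in both adult libraries and 68.2 at PND8. Its RNA, from separate libraries, was 13.4 and 11 CPM in the adult replicates and 919 and 1107 CPM in the PND8 Ki67-positive replicates. CPM are counts scaled to the library total after adjustment by the normalisation factors of edgeR (TMM). The log2 change was 6.37 ± 0.20 (SE, edgeR adjusted p = 1.35e-10, n = 2 and 2). The groups did not overlap in either measure. In bulk libraries such as these, a larger share of cycling cells and more signal per cell cannot be told apart. Since cells were sorted on Ki67, the Mki67 values check the labels. Those RNA libraries were made from adult wild-type mice of 90 days and from PND8 mice that carry a Ki67-rfp reporter, so genotype, age and Ki67 status cannot be told apart in them. The labels call the replicates independent biological replicates.

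The other mitotic genes with a peak in PND8 only spanned a wide range of signal, from 8.57 for Psrc1 to 185.3 for Hjurp, with a median of 38.25 over the 30 genes. Cdk1 had 0, 0 and 105.5 in adult replicate 1, adult replicate 2 and PND8, and its RNA was 3.70 and 4.15 CPM in adults and 136 and 145 CPM at PND8. Ccnb2 had 0, 0 and 82.8, with RNA of 3.24 and 3.18 CPM in adults and 124 and 149 CPM at PND8. Top2a had 0, 0 and 51.4, and its RNA change was 6.14 on the log2 scale (SE 0.28, adjusted p = 2.32e-09). In each of these genes both adult lists were empty over the whole gene and its flanks of 1 kb. Ccnb1, the main mitotic B-type cyclin, had 0, 0 and only 14.5, below the equal-number limit, though its RNA change was 8.10 (SE 0.36, adjusted p = 2.01e-09). Hjurp, the chaperone of the centromeric histone CENP-A, had the strongest such peak but shares it with A730008H23Rik, and its RNA rose by 0.60 on the log2 scale (SE 0.10, adjusted p = 2.71e-04).

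Adult cells that are Ki67-negative still had a polymerase peak at some mitotic promoters. The 15 G2/M genes with a peak in all lists had adult RNA at a median 7.58 CPM, against 1.94 CPM for the 30 PND8-only genes. Kif11 had signals of 59.3, 26.2 and 129.0, the PND8 value above both adult ones, and its RNA rose from 3.12 and 3.30 CPM to 205 and 192 CPM (log2 change 5.95, SE 0.21, adjusted p = 2.28e-10). Tubb4b, a beta-tubulin, had 70.1, 37.2 and 157.7. Hmgb2, a chromatin protein abundant in dividing cells, had 178.6, 66.1 and 151.0, with PND8 between the adult values, while its RNA rose by 2.95 (SE 0.22, adjusted p = 2.07e-07). Cbx5, a heterochromatin protein, also had PND8 between the adults, at 201.8, 60.0 and 96.9, and its peak is shared with Hnrnpa1. A peak in the adult lists at Kif11 thus went with adult RNA no higher than that of Cdk1, which had none.

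**Figure D2:**
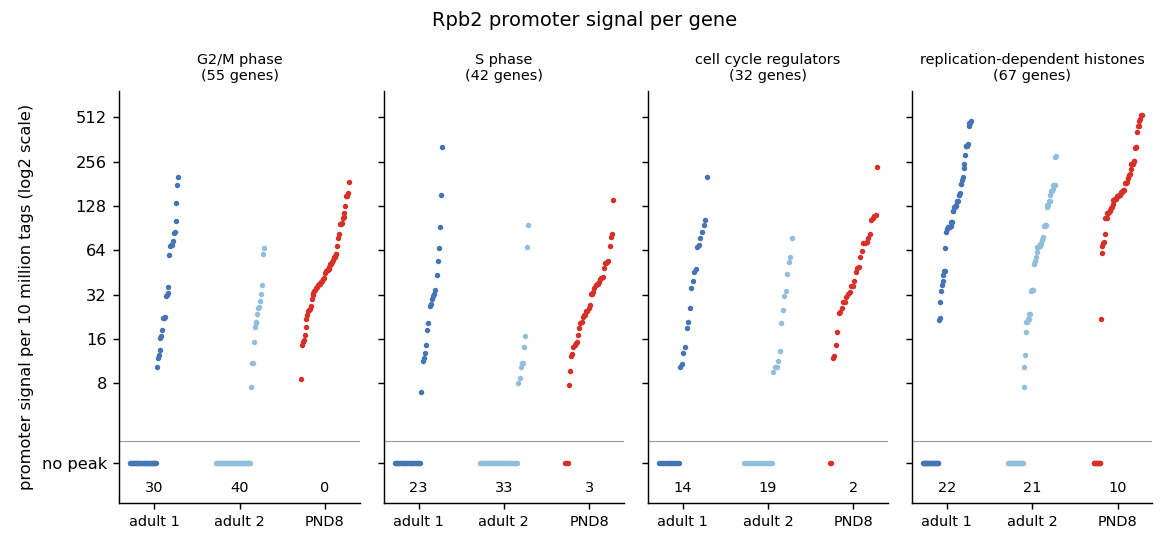
Rpb2 promoter signal (Normalized Tag Count, log2 axis) of each gene of 4 lists in the 3 libraries, 1 point per gene in rising order; points below the line are genes with no peak, with their number under them. In the G2/M list 30 and 40 genes have no peak in the adult libraries and 0 at PND8, and some histone genes are above 200 in all 3 libraries.

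RNA of all 55 G2/M genes rose between adult and PND8 Ki67-positive cells, with a median log2 change of 5.56. Of the 12230 genes tested, 25.1% were higher and 24.3% lower at an adjusted p of 0.05. The median change was 6.17 for the 30 genes with a PND8-only peak, 5.27 for the 10 with a peak in PND8 and 1 adult, and 2.95 for the 15 with a peak in all lists. That order describes these genes and was not tested.

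Genes of S phase had the same direction and more gaps. Of 42, promoter peaks were found in 19 and 9 in the adult libraries and in 39 at PND8. With equal numbers the counts were 14, 9 and 24. Among all genes, 36.0%, 30.6% and 48.4% had one, and 31.7%, 30.6% and 33.4% with equal numbers. RNA was higher for 35 of the 42 and lower for 1, where 25.1% of all genes tested were higher and 24.3% lower. Pcna, the sliding clamp of DNA polymerase, had 323.2, 95.4 and 140.2, so PND8 lay between the adults, while its RNA rose by 0.96 (SE 0.18, adjusted p = 6.03e-04). Mcm6 had 0, 0 and 35.4, and RNA rose from 21.5 and 23.7 CPM to 102 and 103 CPM. Mcm5, of the same helicase, had 14.6, 0 and 32.46. Rrm1, the large subunit of ribonucleotide reductase, had 0, 10.3 and 82.4, and its RNA rose by 2.38 (SE 0.17, adjusted p = 1.67e-07).

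Nasp and Slbp show that S phase genes did not all follow this order. Nasp, a histone chaperone, had 152.1 in adult replicate 1, no peak in adult replicate 2 and 37.3 at PND8, and its RNA rose by 1.25 (SE 0.20, adjusted p = 1.91e-04). Slbp, which binds the stem-loop of histone messages, had 92.8, 67.6 and 48.8, lowest at PND8, with RNA of 40.0 and 38.2 CPM in adults and 41.1 and 37.2 CPM at PND8. Mcm2, Exo1 and Ung were the 3 S phase genes with no promoter peak in any list. They are named after their values were seen, and RNA of each was higher at PND8, by 2.58, 4.41 and 4.01.

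Among 32 regulators of the cycle, 18 and 13 had a promoter peak in the adult libraries and 30 at PND8. These were 56.25%, 40.62% and 93.75% of the list, against 36.0%, 30.6% and 48.4% of all genes. RNA of 22 was higher and of 2 lower, where 25.1% of all genes tested were higher and 24.3% lower. All 12 regulators with a PND8-only peak had higher RNA, with a median log2 change of 4.36, while 6 of the 12 with a peak in all lists did, with a median of 0.39. Cdkn1a, the p21 inhibitor of cyclin-dependent kinases, had 69.6, 31.5 and 237.1, and its RNA rose by 2.93 (SE 0.17, adjusted p = 1.66e-08), so an inhibitor of the cycle rose with the drivers. Cdkn1b, the p27 inhibitor, had 202.3, 77.9 and 110.4, with PND8 between the adults, and an RNA change of 0.05 that did not pass the test. Myc, a growth regulator, had 77.7, 57.4 and 111.8 and an RNA change of 0.36 that did not pass. Other transcription factors of the cycle, named after their values were seen, fell into 2 classes. Foxm1 had 39.5 in a peak shared with Rhno1, Mybl2, the gene of B-MYB, 36.5 and E2f1 28.3, all at PND8 only. E2f2 had 10.3, 0 and 26.1, and E2f3 47.5, 0 and 57.8, so an adult list held these as well. Ccna2 (cyclin A2), also named after its values were seen, had 10.8 in adult replicate 1 and no promoter peak at PND8 or in adult replicate 2. Over the whole gene and its flanks it had 10.8, 0 and 72.0, highest at PND8, and its RNA rose by 4.36 (SE 0.25, adjusted p = 1.67e-08).

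**Figure D3:**
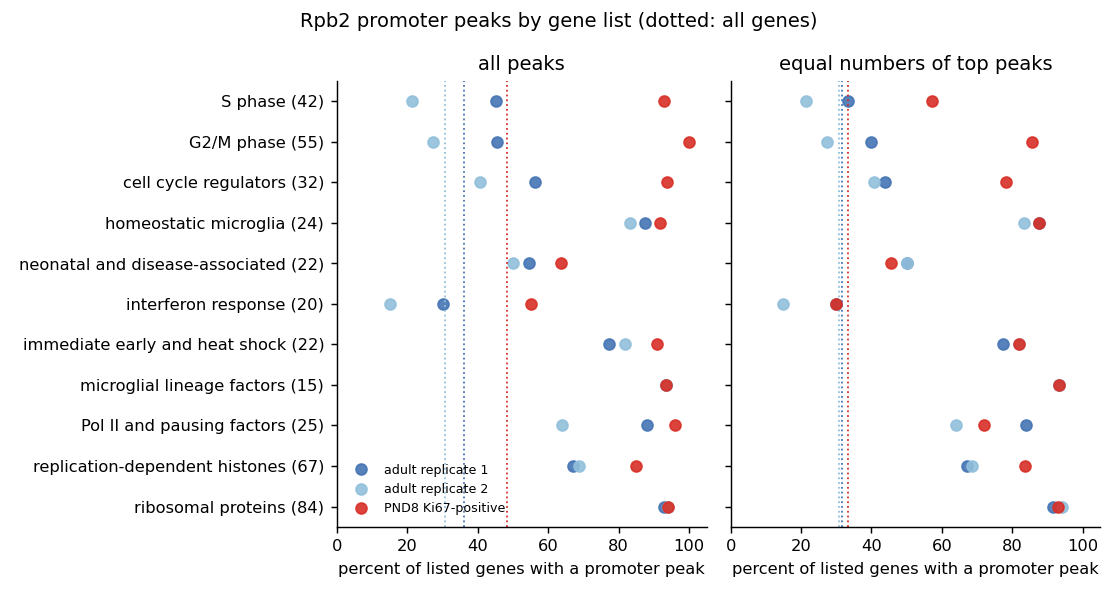
Percent of each gene list (number of genes in parentheses) with an Rpb2 promoter peak in each library, for all peaks and for equal numbers of top peaks; dotted lines give the percent over all genes in the same colours, and points at the same value hide each other. The G2/M list is at 100.0% at PND8 against 45.45% and 27.27% in the adult libraries, and the homeostatic microglia, lineage and ribosomal lists are above 80% in every library.

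Taken over the S phase, G2/M and regulator lists, 124 distinct genes, 55 were in the PND8-only class: that is 44.35% of these genes and 2.429% of the class. With equal numbers, 41 of the 124 were among the 715 PND8-only genes (33.06% and 5.734%). Of all genes, 10.8% were in the PND8-only class, and 3.405% with equal numbers. None of the 124 was among the 50 genes with a peak in both adult lists and not PND8, and 1 was among the 447 with equal numbers. That class held only 0.238% of all genes, and 2.129% with equal numbers, so these low counts say little about the 124 genes.

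Open chromatin and H3K4me3 were also found in adults at the G2/M promoters where only PND8 had an Rpb2 peak. All 30 such promoters had an ATAC-seq peak within 1 kb in both the PND8 and the adult library and an H3K4me3 region in both adult libraries (75 days old). Over all genes ATAC stood at 58.44% in PND8 and 56.01% in adults, and H3K4me3 at 60.71% and 60.0%. The adult ATAC mice were C57 and 80 days old, while the title of the PND8 ATAC library names the Ki67-rfp reporter, so reporter and age cannot be told apart in ATAC. H3K27ac, a mark of active promoters and enhancers, was called at 30 of 30 in both PND8 libraries but at 7 (23.33%) and 13 (43.33%) in the adult ones (60 and 65 days old). Over all genes H3K27ac stood at 49.49% and 51.09% in PND8 and 41.33% and 46.0% in adults. The 15 G2/M promoters with a peak in all Rpb2 lists had adult H3K27ac at 14 and 14. Over the whole G2/M list, H3K27ac covered 55 and 55 promoters at PND8 and 29 and 36 in adults. For S phase the counts were 41 and 42 of 42 at PND8 against 23 and 29. The H3K27ac lists also differ in size, with 26962 and 30321 regions at PND8 and 19572 and 24903 in adults.

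**Figure D4:**
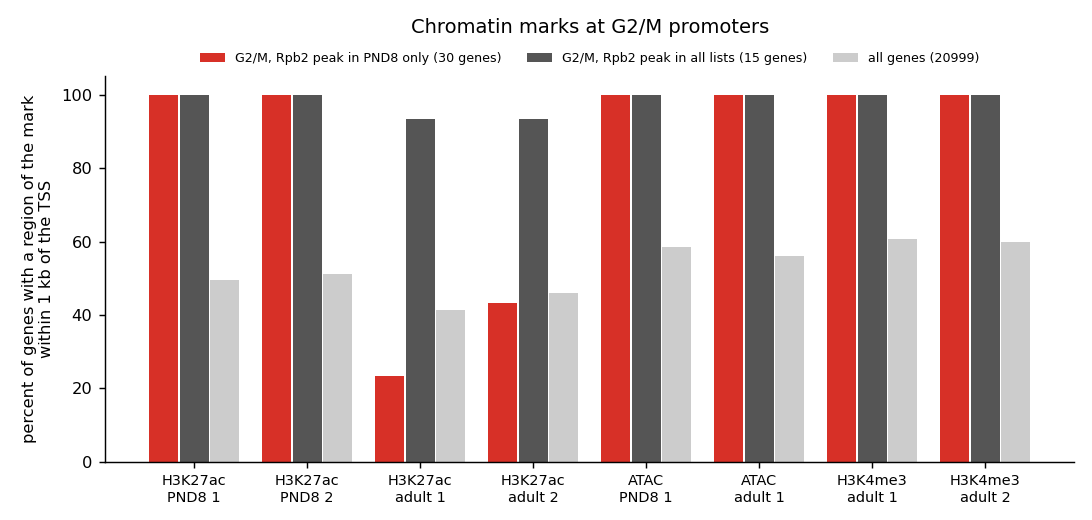
Percent of genes with an H3K27ac, ATAC or H3K4me3 region within 1 kb of the start site in each library (bars), for 30 G2/M genes with a PND8-only Rpb2 peak, 15 with a peak in all lists and all genes. In the first set ATAC and H3K4me3 stand at 100.0% in all libraries, while adult H3K27ac is at 23.33% and 43.33%.

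The same held in milder form for all promoters of the class. Among the 2264 PND8-only genes, H3K27ac was present at 83.39% and 89.13% in PND8 and 42.89% and 63.6% in adults, ATAC at 95.94% in PND8 and 94.92% in the adult library, and H3K4me3 at 93.24% and 93.15% in adults. With equal numbers (715 genes) H3K27ac stood at 98.6% and 99.16% against 62.94% and 81.54%. The difference between the adult H3K27ac libraries was thus of a size with that between the deeper adult library and PND8.

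Promoter sequence was searched in the same windows of 300 bases for 15805 genes with a RefSeq entry. TTTGAA was found in 15.25% of all promoters and in 31 of 47 G2/M promoters (65.96%). CCAAT was found in 38.76% of all and in 38 of the 47 (80.85%), and both together in 6.175% of all and 27 of the 47 (57.45%). E2F words were found in 3.075% of all, in 2 of the 47 G2/M promoters (4.255%), in 10 of 26 S phase promoters (38.46%) and in 8 of 22 regulators (36.36%). S phase promoters held TTTGAA in 15.38%, near the share over all promoters, and CCAAT in 73.08%. The CHR of Mki67, Cdk1, Ccnb2, Top2a and Kif11 and the E2F words of Mcm6 printed above are examples of the 2 patterns. Of the matches printed, only 2 E2F matches of Mcm6 overlap each other.

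Across all 1772 PND8-only promoters with a sequence, TTTGAA was far less common than in the G2/M list and an E2F word than in the S phase list. TTTGAA was in 13.94%, near the share in S phase promoters, CCAAT in 41.65% and an E2F word in 4.74%, near the share in G2/M promoters. The 4606 promoters with a peak in all lists held them in 8.967%, 38.28% and 4.624%. Over all 15805 promoters the shares were 15.25%, 38.76% and 3.075%. In promoters with a peak in no list they were 19.86%, 38.01% and 1.249%. With equal numbers the PND8-only promoters held them in 18.25%, 46.32% and 6.316%, and those with a peak in both adult lists and not PND8 in 8.611%, 29.72% and 5.278%. These shares are descriptions of the letters in the windows.

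Replication-dependent histone genes make the core histones and linker histones during S phase from messages without a poly(A) tail. Of 67 such genes, promoter peaks were found in 45 and 46 in the adult libraries and 57 at PND8. These were 67.16%, 68.66% and 85.07% of the list, against 36.0%, 30.6% and 48.4% of all genes. With equal numbers the counts were 45, 46 and 56 of the 67. Many of these genes lie head to head and share a window, so the counts of distinct peaks were 38, 36 and 52. The cluster on chromosome 13, with 54 of the genes between 21715711 and 23934913, held 35, 36 and 45 genes with a peak. The 42 genes with a peak in all lists had a median centred difference of 0.25 on the log2 scale (PND8 over the adult mean, less the median of all such genes), where all 5858 genes had -0.09. Between the adult libraries (replicate 1 less replicate 2) the same median was -0.18, and -0.08 over all 5858 genes.

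Several linker histone genes had far more signal at PND8 than in either adult library. Hist1h1d (histone H1.3) had 34.0, 33.8 and 448.1, the largest ratio to adults among 1655 genes whose adult values lay within 1.5 times of each other. Hist1h1b (H1.5) had 0, 0 and 212.5, and Hist1h1a (H1.1) 0, 0 and 140.6. Hist1h1c (H1.2) had 200.7, 168.0 and 486.1. The core histone genes Hist1h2bh and Hist1h3f share 1 window with 472.1, 162.3 and 530.5, and Hist1h4c had 449.4, 279.0 and 502.2, so several core genes were strongly occupied in adults as well. Hist1h2be had 66.4, 137.6 and no promoter peak at PND8, and its adult peak is shared with Hist1h1e. Over the gene and its flanks Hist1h2be had 318.9, 250.5 and 288.5, with PND8 between the adults.

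RNA of these genes can be read only in part, since the RNA libraries were selected by oligo(dT). Only 16 of the 67 passed the filter on low counts. Of these, 8 were higher and 1 lower at PND8, where 25.1% of all genes tested were higher and 24.3% lower. Hist1h1c rose by 1.93 (SE 0.16, adjusted p = 5.91e-07), from 9.59 and 11.7 CPM to 40.4 and 40.7 CPM. Hist1h1b had 0 counts in both adult replicates and 5.06 and 6.01 CPM at PND8, at least 15.5-fold higher against a floor of 3 counts in each library (edgeR adjusted p = 6.46e-05).

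Microglial identity genes carried polymerase in all 3 libraries, and their RNA was lower at PND8 or did not pass the test. Of 24 homeostatic microglia genes, 21, 20 and 22 had a promoter peak in adult replicate 1, adult replicate 2 and PND8. With equal numbers the counts were 21, 20 and 21. Among all genes, 36.0%, 30.6% and 48.4% had one, and 31.7%, 30.6% and 33.4% with equal numbers. RNA was lower for 14 and higher for none of the 24, where 24.3% of all genes tested were lower and 25.1% higher. P2ry13, a purine receptor, had 575.6, 166.8 and 280.4, with PND8 between the adults. Cx3cr1, the fractalkine receptor, had 188.8, 95.4 and 149.5, and Csf1r, the receptor that microglia need to survive, 116.5, 77.5 and 94.3. The RNA changes of Cx3cr1 (-0.23) and Csf1r (-0.17) did not pass the test. Tmem119, a microglial surface protein, had 16.7, 44.5 and 107.7, with PND8 highest, while its RNA fell by 0.66 on the log2 scale (SE 0.11, adjusted p = 2.23e-04). P2ry12, the purine receptor of resting microglia, had 181.8, 0 and 57.4 and an RNA change of -0.26 that did not pass.

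Of 15 transcription factors of the lineage, 14 had a promoter peak in each list. Among all genes, 36.0%, 30.6% and 48.4% had one in adult replicate 1, adult replicate 2 and PND8. Cebpa, a myeloid factor, had 360.9, 421.5 and 535.0, highest at PND8, while its RNA fell by 0.83 (SE 0.09, adjusted p = 7.70e-06). The polymerase signal and the RNA of Cebpa thus differed in direction in the uncentred values, and after centring its signal stood at -0.16. Mef2c had 268.7, 74.1 and 191.3. Irf8, the only factor of the 15 with no promoter peak, had no peak anywhere in the gene in any list, although its RNA was 482 and 483 CPM in adults. It was named after its values were seen.

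Genes known from neonatal and disease-associated microglia had about as many promoter peaks at PND8 as in adults. Of 22, 12, 11 and 14 had a promoter peak, where 36.0%, 30.6% and 48.4% of all genes had one. With equal numbers the counts were 11, 11 and 10, where the shares over all genes were 31.7%, 30.6% and 33.4%. RNA of 14 was nevertheless higher at PND8 and of 0 lower, where 25.1% of all genes tested were higher and 24.3% lower. Of the 8 with no promoter peak in any list, 6 had higher RNA, named after their values were seen: Gpnmb by 6.81, Spp1 by 5.09, Lpl by 3.31, Axl and Itgax by 1.61 and Apoe by 1.53. Some of these had peaks elsewhere in the gene: Axl had 107.85, 27.4 and 73.4, and at PND8 only, Itgax had 19.0 and Lpl 14.91. Apoe, the lipid carrier, had RNA of 149 and 173 CPM in adults and 482 and 445 CPM at PND8, a promoter signal of 0 in all 3 libraries, and 1 peak of 25.4 in the gene body at PND8. Igf1, a growth factor also named after its values were seen, had only 7.08 at PND8 and none in adults, with an RNA change of 5.34 (SE 0.18, adjusted p = 1.89e-10). Among the members with peaks, Ctsl had 212.6, 108.3 and 171.9 and Tyrobp 296.2, 165.3 and 139.5.

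Immediate early genes, which respond within minutes to a stimulus and also to tissue handling, were listed together with heat shock genes. Most genes of this joint list had a promoter peak in every library. Promoter peaks were found in 17, 18 and 20 of 22, against 36.0%, 30.6% and 48.4% of all genes. The 15 with a peak in all lists had a median centred difference of -0.87, the lowest of the programme lists. Between the adult libraries this median was -0.425. Junb had 514.7, 355.7 and 546.2, and Ier5 581.1, 292.3 and 198.7. Jun had 0, 0 and 497.3, the highest PND8-only signal of all genes, yet its RNA was 249 and 247 CPM in adults and 265 and 152 CPM at PND8, a change of -0.25 that did not pass (adjusted p = 0.381). Zfp36, an RNA-decay factor, had 0, 0 and 376.9, while its RNA was lower by 0.76 (SE 0.28, adjusted p = 0.0397), a call lost without either adult RNA replicate or PND8 replicate 2 and with DESeq2 or limma (adjusted p from 0.0515 to 0.337). Egr1 had 0, 642.3 and 255.4, and its PND8 replicates differed in RNA, at 354 and 32 CPM. RNA of 4 genes of the list was higher and of 7 lower, where 25.1% of all genes tested were higher and 24.3% lower.

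Of 20 interferon response genes, 6, 3 and 11 had a promoter peak, and 6, 3 and 6 with equal numbers. Over all genes 36.0%, 30.6% and 48.4% had one, and 31.7%, 30.6% and 33.4% with equal numbers. The share of the list was thus below that of all genes in both adult libraries and above it at PND8. With equal numbers it was below that of all genes in every library. Isg15 had 48.0, 35.0 and 22.0. Stat2 had 0, 0 and 35.8, and its RNA change of 0.28 (SE 0.09, adjusted p = 0.0179) passed, and the call was lost without either adult RNA replicate or PND8 replicate 2 (adjusted p from 0.0663 to 0.114).

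Ribosomal protein genes were occupied throughout. Of 84, 78, 79 and 79 had a promoter peak, where 36.0%, 30.6% and 48.4% of all genes had one. The 77 with a peak in all lists had a median centred difference of -0.50, against 0.13 between the adult libraries. RNA of 75 of the 81 tested was higher at PND8 and of 1 lower, where 25.1% of all genes tested were higher and 24.3% lower. Rpl3 had 555.2, 208.3 and 316.1, Rps27 417.6, 227.3 and 182.7, and Rpl13a 301.6, 201.0 and 253.5. The RNA rise was small, at 0.68 for Rpl3 (SE 0.10, adjusted p = 8.25e-05) and 0.51 for Rps27 (SE 0.12, adjusted p = 3.53e-03).

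Among 25 genes of the polymerase and of pausing, 22, 16 and 24 had a promoter peak, and 21, 16 and 18 with equal numbers. The shares over all genes were 36.0%, 30.6% and 48.4%, and 31.7%, 30.6% and 33.4% with equal numbers. Polr2a, the largest subunit, had 436.5, 418.4 and 608.4, highest at PND8 in the uncentred values. After centring on each library's median its log2 values were 2.97, 3.98 and 3.37, with PND8 between the adults. Polr2b, the immunoprecipitated subunit, had a peak of 29.5 at PND8 only, shared with Noa1 and below the equal-number limit. Its RNA was 71.6 and 66.7 CPM in adults and 81.3 and 94.4 CPM at PND8, a log2 change of 0.35 (SE 0.11, adjusted p = 0.0187) whose call was lost without either adult RNA replicate or PND8 replicate 2 (adjusted p from 0.0511 to 0.174). Ccnt1, the cyclin of the elongation kinase CDK9, had 160.2, 48.6 and 93.6, and Nelfa, of the negative elongation factor, 137.0, 45.6 and 50.3. RNA of 9 of these 25 genes was higher and of 4 lower, where 25.1% of all genes tested were higher and 24.3% lower.

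Signal could be set against adults as a ratio only for the 5858 genes with a promoter peak in all lists. The median log2 ratio was 0.98 for adult replicate 1 over adult replicate 2 (SD 0.81 over genes), 0.02 for PND8 over adult replicate 1 (SD 0.90) and 1.03 for PND8 over adult replicate 2 (SD 0.83). PND8 was thus level with the stronger adult library, and the spread over genes was nearly as wide between the adult replicates as between PND8 and either of them. The correlation across these genes was 0.79 between the adults and 0.69 and 0.74 for PND8 with adult replicates 1 and 2. Against the adult mean the median was 0.40, and values were centred on the median of each library. After centring, 239 genes (4.08%) were at least 2-fold above both adults and 307 (5.24%) at least 2-fold below. Against a single adult library these counts rose to 566 and 916 without adult replicate 1 and to 991 and 1045 without adult replicate 2. Median centred differences were 0.69 for the 15 G2/M genes, 0.29 for 12 regulators, 0.07 for 6 S phase genes, -0.15 for Pol II and pausing, -0.23 for lineage factors, -0.33 for neonatal genes, -0.45 for 18 homeostatic genes and -0.49 for 3 interferon genes, where all 5858 genes had -0.09. Between the adult libraries the same medians were 0.48, 0.24, 0.29, 0.125, -0.385, -0.17, -0.30 and 0.75 in that order, so differences of the same order stood between the adult libraries.

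Outside the histones, the largest ratios belonged to genes of varied function. Pias3, a SUMO ligase, had 10.3, 12.9 and 138.0. Sept11, a septin of the cytoskeleton, had 8.09, 6.84 and 74.2, and its RNA rose by 1.36 (SE 0.11, adjusted p = 4.58e-07). Xpo7, a nuclear export receptor, had 27.5, 27 and 252.0, and Bcl7a, of the BAF remodelling complex, 7.55, 6.08 and 58.9, with RNA higher by 0.50. C2cd2l, Hpcal1, Zfpm1, Galnt10 and Eif4ebp1 completed the 10 largest, with PND8 signals from 68.3 to 128.3 and adult signals from 7.6 to 19.8. RNA also rose for Galnt10 (0.30) and C2cd2l (0.27), calls lost in 1 and 7 alternatives. The RNA changes of Xpo7, Hpcal1 and Eif4ebp1 did not pass the test. Pias3 RNA fell by 0.39 (edgeR adjusted p = 0.00323, a call lost without adult RNA replicate 2). Zfpm1 RNA fell by 0.28 (edgeR adjusted p = 0.0332, a call lost in 5 alternatives). RNA thus did not follow the signal in every case.

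At the other end, RNA was lower for 5 of the 10 genes with the smallest ratios and higher for none. Of all 12230 genes tested, 24.3% were lower and 25.1% higher. Pmp22, a membrane protein of growth arrest, had 62.0, 50.5 and 14.9, and its RNA fell by 1.77 (SE 0.11, adjusted p = 2.64e-08). Per2, of the circadian clock, had 54.0, 37.6 and 16.8, and its RNA fell by 2.36 (SE 0.17, adjusted p = 1.06e-07). Rgs1, a regulator of G-protein signalling, had 228.8, 199.1 and 85.4, and its RNA fell by 1.87. Herpud1, of the endoplasmic reticulum stress response, had 246.0, 188.1 and 93.6, and its RNA fell by 0.76. Vamp2 had 137.0, 162.7 and 58.5, and Patl1 158.1, 129.2 and 45.9 with an RNA change of 0.01 that did not pass. Sqstm1 and Luc7l2 also had PND8 below both adults, with RNA changes of -0.17 and -0.04 that did not pass. Dph3 and Oxnad1 share 1 window with 35.1, 24.7 and 11.6.

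Few promoters had a peak in both adult lists and none at PND8, and 27 of these 50 genes had a PND8 peak elsewhere in the gene or its flanks. Of all genes, 55.39% had a PND8 peak in the gene or its flanks, promoter peaks included. The strongest of these 50 was Clcn4, a chloride transporter, with 141.4 and 126.2 at the promoter and 104.0 over the gene at PND8, and its RNA fell by 0.65 (SE 0.08, adjusted p = 2.31e-05). Mlph (melanophilin, a link between Rab27a and myosin Va) had 46.4 and 42.9 and no peak at PND8 anywhere in the gene. Its RNA was 228 and 224 CPM in adults and 11.7 and 11.1 CPM at PND8, a log2 change of -4.31 (SE 0.21, adjusted p = 4.89e-09). Capn3, a calpain protease, had 61.0 and 21.3 and 32.36 over the gene at PND8, and its RNA fell by 1.69 (SE 0.09, adjusted p = 5.75e-09). Lat2 had 78.8 and 25.1, with 25 over the gene at PND8 and RNA lower by 0.48. Clic1 had 99.3 and 39.1, with 175.9 over the gene at PND8 and RNA higher by 0.33, a call lost without either adult RNA replicate or PND8 replicate 1 (adjusted p from 0.0548 to 0.0739). Cox20, Tnrc18, Sin3a and Stag2 were the rest of the strongest 10 beside Hist1h2be, and the RNA change passed in none of these 5.

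Across promoter classes, RNA ran with the Rpb2 class, by a modest margin. Of the 2067 PND8-only genes tested, 31.49% were higher and 19.88% lower, against 25.1% and 24.3% of all 12230 genes. For the 50 genes in both adult lists and not PND8, 12% were higher and 56.0% lower, with a median of -0.47. Genes in all lists stood at 23.68% and 26.68%. With equal numbers the PND8-only genes were 42.82% higher and 13.22% lower (696 tested), and those in both adult lists and not PND8 16.78% and 37.41% (441 tested). By signal, 37.66% of the genes at least 2-fold above both adults were higher in RNA and 17.32% lower, and of those at least 2-fold below, 17.65% and 35.95%. The correlation across 5761 genes between the centred Rpb2 difference and the RNA change was weak, with r = 0.18 against the adult mean, 0.12 against adult replicate 1 and 0.20 against adult replicate 2. Genes are not independent replicates, and the adult Rpb2 values enter every point.

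**Figure D5:**
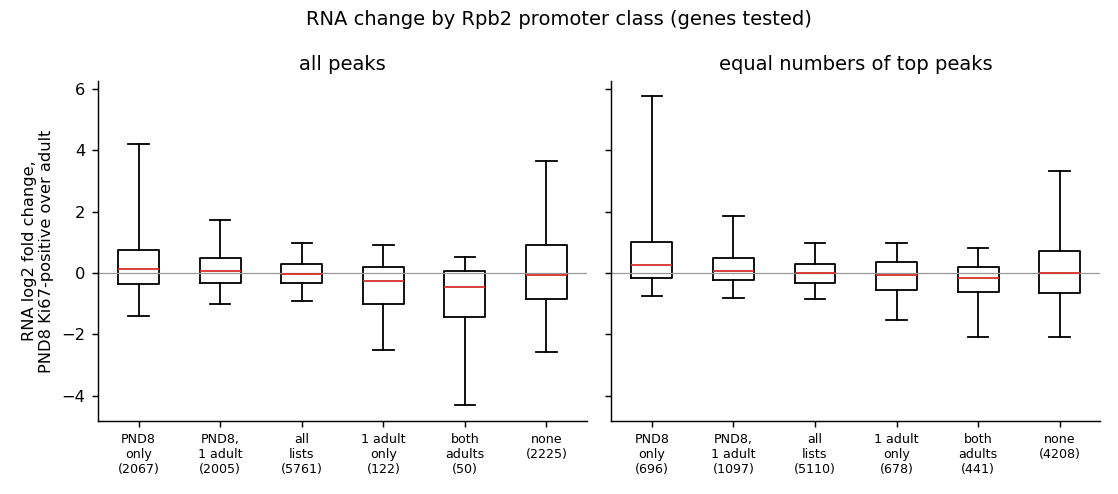
RNA log2 fold change of PND8 Ki67-positive over adult microglia for tested genes (number in parentheses) by Rpb2 promoter class, for all peaks and for equal numbers; boxes span the quartiles with the median in red, and whiskers run from percentile 5 to percentile 95. The medians are 0.12 for PND8-only genes and -0.47 for genes in both adult lists and not PND8 with all peaks, and 0.27 and -0.17 with equal numbers.

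In gene bodies the direction depended on list length. With all peaks, 0.231% of gene body bases lay under a peak at PND8, 0.118% in adult replicate 1 and 0.0624% in adult replicate 2, or 2108, 1080 and 570.6 kb. With equal numbers this turned, to 354.2 kb at PND8 against 562.2 and 570.6 kb in adults. Among the 5858 genes with a promoter peak in all lists, 43.43% had a gene body peak at PND8, 26.84% in adult replicate 1 and 18.95% in adult replicate 2. Where both were present, the body signal was a median 0.41 of the promoter signal at PND8 and 0.48 in each adult library. Over all genes with both kinds of peak in a library it was 0.527 at PND8, between the adult values of 0.545 and 0.524.

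Away from promoters and gene bodies, PND8-only regions carried less of the other marks than shared regions did. Of the 7675 PND8-only regions elsewhere, H3K27ac overlapped 54.62% and 60.82% in the PND8 libraries and 32.3% and 46.72% in the adult ones, and ATAC 72.48% at PND8 and 73.24% in adults. The 948 regions of all lists elsewhere were overlapped by H3K27ac at 96.52% to 98.84% in the 4 libraries. With equal numbers, the 635 PND8-only regions elsewhere had H3K27ac at 85.83% and 88.82% in PND8 and at 70.87% and 82.2% in adults. In gene bodies the 8410 PND8-only regions had H3K27ac at 46.62% and 51.95% against 29.33% and 42.0%.

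Few markers of other brain and blood cells had an Rpb2 promoter peak. Of 52 such markers, 5, 5 and 6 had a promoter peak, with summed signals of 86.35, 51.68 and 133.5, the highest being Cnp, an oligodendrocyte enzyme, with 32.9, 20.9 and 69.7. Promoters of all markers of neurons, border macrophages, monocytes or neutrophils and lymphocytes were at 0 in all 3 lists. A peak anywhere in the gene or its flanks was found for 10, 6 and 18 of the 52, among them 4 of the 7 border macrophage markers at PND8, led by Mrc1 with 33.6. In RNA, 34 of the 52 were tested, 11 higher and 10 lower, where 25.1% of all 12230 genes tested were higher and 24.3% lower. The 7 border macrophage markers summed to 64.5 and 79.8 CPM in adults and 859 and 847 CPM at PND8, with 3 of the 7 called higher, and the 7 monocyte or neutrophil markers to 211 and 62.2 CPM in adults and 4.95 and 4.97 CPM at PND8. Erythroid markers summed to 0.462 and 7.45 CPM in adults and 61.4 and 23.3 CPM at PND8, and all 5 tested were higher. Astrocyte markers summed to 240 and 248.2 CPM in adults and differed between the PND8 replicates, at 61.1 and 376 CPM. Their part in the RNA differences was not tested.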

How the data were processed

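Rpb2 peaks had been called by the authors with HOMER on each library separately against an input, per the file headers, at a false discovery rate of 0.001. The deposited signal is the Normalized Tag Count per 10000000 tags, and the deposited score is HOMER's peak score. The deposited ratio columns, the fold over control and over local background, set the stricter alternative. Deposited raw counts of 20999 genes were tested, and deposited TPM values served only in alternatives. The submitters' processing notes name STAR 2.7.0f, Bowtie2 2.3.4.1, HOMER 4.11 and the builds mm10 and GRCm38. The PND8 list was called against an H3K27ac input, and headers of the adult lists mention vehicle, which their labels do not.

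The 3 lists were merged at an overlap of 1 bp. A promoter is 1 kb each side of a count-table start site, a gene body the rest of the gene, and a gene's promoter signal the sum over its peaks there. Equal numbers are the 10544 top peaks by score. For ratios, log2 signals were centred on each library's median. Marks count as present by an overlap of 1 bp. No Rpb2 difference was tested, and depth limits the lists to counting error that is not given.

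RNA counts of the 10 libraries (the 4 compared held 8219620 to 8816931 counts) were fitted with edgeR 4.0.16 in R 4.3.3 (quasi-likelihood, TMM, filterByExpr, 12230 genes, Benjamini-Hochberg adjusted p under 0.05), after a check on simulated data. RNA header codes differ between all libraries compared, within a group as well as between groups, so no batch can be read from them. Same-numbered RNA replicates did not deviate together (correlation -0.0084).

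Genes were named by rule: a panel of 10 genes, the 10 strongest PND8-only and adult-only promoters, the 10 largest and 10 smallest ratios, and the 4 strongest members of each list. The lists were S phase, G2/M, regulators, histones, homeostatic, neonatal and disease-associated, interferon, and immediate early and heat shock genes. The others were lineage, Pol II and pausing, ribosomal proteins and other cell types. Members and lists were chosen with earlier results of these data known. Alternatives changed the lists compared, fold minimum, promoter window, overlap, ranking, peak number, RNA filter, scaling and tool (DESeq2 1.42.0, limma 3.58.1). Merging across 200 bp and counting a peak anywhere in the gene were added after seeing the data. Other samples of the series, and a few genes that the rule names, are not reported here.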

Additional observations from a re-analysis of the deposited data

How the results depend on the processing

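Comparisons were repeated under the alternatives that apply to them, though not every gene list under each alternative. Some orders between libraries turned, among them those of gene body coverage and of the shares of regions with 5000 peaks. With equal numbers, promoter peak counts of the neonatal list turned from 12, 11 and 14 to 11, 11 and 10. Those of the Pol II and pausing list turned from 22, 16 and 24 to 21, 16 and 18. Leaving out an adult list moved the region counts: regions in all remaining lists numbered 7783 to 10496, those in the remaining adult list and not PND8 2761 to 4054, and merging peaks within 200 bp gave 296 of the latter. PND8-only genes ranged from 2758 to 3819 and adult-only genes from 84 to 155 when an adult list was left out, and equal numbers gave 715 and 447. Genes at least 2-fold above ranged from 566 to 991 and genes below from 916 to 1045 against a single adult library, and 194 were below with peaks at least 8 times the input. By construction these counts require fewer lists or fewer peaks. The share of PND8 regions in adult replicate 1 was 63.99% with peaks at least 8 times the input, 60.83% without adult replicate 2, 63.38% with 5000 peaks and 65.05% when ranked by signal. That in adult replicate 2 was 60.99% without adult replicate 1 and 67.98% with 5000 peaks, and adult replicates shared 61.8% with peaks at least 8 times the input and 70.46% with 5000 peaks. Gene body coverage was 354.2 kb at PND8 and 562.2 kb in adult replicate 1 with equal numbers, and 702.7 and 366.9 kb in the adult replicates with peaks at least 8 times the input.

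RNA by class moved to 42.82% higher and 13.22% lower for PND8-only genes and 37.41% lower for adult-only genes with equal numbers, and to 29.46% higher for PND8-only genes with no filter on low counts. Marks at PND8-only promoter regions (85.51% and 90.05% H3K27ac in PND8, 53.97% and 70.8% in adults, ATAC 75.12% and 74.39%) became 83.06%, 88.41%, 50.01%, 67.87%, 56.0% and 55.28% with an overlap of at least 0.5 of the shorter region. With equal numbers they became 97.71%, 98.58%, 73.04%, 85.85%, 77.15% and 75.89%. The cause of the moves in shares was not tested.

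RNA calls of 3073 higher and 2976 lower genes became 2316 to 3389 and 2152 to 3347 when 1 RNA library was left out, where a lone library is taken to vary like the other groups. DESeq2 called 2847 and 2642, and limma on TPM with a pseudocount of 1 called 3034 and 2835. With the replicate block the calls were 3299 and 3240. Of 90 named genes with an RNA test, 56 were called; 14 of these lost the call in at least 1 of 17 alternatives, 12 others gained one, and none reversed. Polr2a (6 alternatives), Zfp36 (6), Junb (4), Clic1 (3) and P2ry13 (2) were among the calls lost, and Cx3cr1 and P2ry12 (4 each) and Jun (2) among those gained. With 1 PND8 library at these depths, single weak peaks such as those of Psrc1 or Ccnb1 are the least certain values.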

Other observations

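Genes outside the count table carried some of the strongest Rpb2 regions of all 3 lists. Named after their values were seen, Malat1, a nuclear long noncoding RNA, had a region on chromosome 19 from 5802506 to 5802762 with signals of 695.4, 382.3 and 605.4 in adult replicate 1, adult replicate 2 and PND8. Neat1, the scaffold of paraspeckles, had 376.6, 122.8 and 182.7, and Rnu1a1, a U1 small nuclear RNA transcribed by RNA polymerase II, had 607.0, 164.9 and 510.0. In these genes PND8 lay between the adult values. Snhg1, a host of small nucleolar RNAs, had 266.0 and 27.7 in adults and no region at PND8.

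By RefSeq class, 28, 21 and 32 small nuclear RNA genes had a region in adult replicate 1, adult replicate 2 and PND8, 803, 512 and 1781 long noncoding genes did, and 46, 22 and 95 transfer RNA genes did. Transfer RNAs are made by RNA polymerase III, so a region over such a gene is not a measure of its own transcription. These counts use all peaks, and the PND8 list is the longest.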
